A study of Mus musculus with 4 samples.

Results

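The genes described here encode the proteasome, its activators, its inhibitor and its dedicated assembly chaperones. They were chosen by name, as every gene whose symbol begins with Psm, goes on with a letter from a to g and ends in a number. This gave 48 of 37412 genes, of which 46 had at least 20 exon reads in each pair of libraries. Psma8, the testis form of an alpha subunit, had 1, 0, 0 and 1 reads in the 4 libraries, and Psmb11, the catalytic subunit of the thymus form of the proteasome, had 0, 0, 0 and 1. Neither entered a comparison.

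All 4 libraries came from naive CD4+ T cells of the spleen of C57BL/6 mice, stimulated for 24 h with plate-bound antibodies to CD3 and CD28. All cultures followed the aTh17 protocol, in which the cytokines IL-1β, IL-6 and IL-23 are added together with antibodies that neutralise IL-4 and IFN-γ. One library had received the CK2 inhibitor DMAT at 1.5 µM and another the CK2 inhibitor CX4945 at 1 µM, and each had a control library of its own, named in the titles (withoutDMAT and withoutCX4945). CK2 is a serine/threonine protein kinase, and the comparison asks how proteasome transcripts stand when it is inhibited during early Th17 differentiation. The labels do not state whether the controls received a solvent, or how many mice gave cells. Each group held 1 library, so a ratio within a pair has no replicate check and carries no p-value, and its interval covers counting error only. The doses differed between the inhibitors, so their values are given side by side and the difference was not tested.

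The proteasome degrades proteins that carry ubiquitin chains. Its core particle is a barrel of alpha and beta rings, with the proteolytic sites on beta subunits inside. A regulatory particle binds the ubiquitin chain, removes it, and unfolds the substrate with a ring of ATPases. In lymphocytes the 3 catalytic beta subunits can be replaced during assembly by the inducible subunits of the immunoproteasome, and the barrel can be capped by activators such as PA28 (PA28α is Psme1 and PA28β is Psme2). Both changes are known from interferon-γ responses and from the supply of peptides to MHC class I.

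Values below are in the order control for DMAT, DMAT culture, control for CX4945, CX4945 culture. In that order the depth was 2772525, 2523446, 2285545 and 2056635 exon reads. Summed levels of 6 T cell markers lay between 1662 and 1791 CPM (counts scaled to library size). CD8 T cell markers summed to 2.36 to 4.90 CPM, B cell markers to 0.394 to 1.45, myeloid markers to 2.17 to 4.41 and dendritic cell markers to 0 to 0.726. Cd79b, Ms4a1, Lyz2, Itgam, Itgax and Siglech had 0 reads in every library, as had the listed NK cell and erythroid genes. In such bulk libraries, fewer cells of a type and less RNA per cell cannot be told apart.

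The pair of genes with the highest ratios in the CX4945 culture, Psme1 and Psme2, are neighbours. In the deposited tables (mm9) Psme1 spans chr14:56196960-56200366 and Psme2 chr14:56206278-56209950, so the spans lie 5912 bases apart. Psme1 is on the plus strand and Psme2 on the minus strand, so this gap separates their 3′ ends. The 250 bases before a RefSeq start of each (start site 1 for Psme2) are shown because these members stood highest together. They are from GRCm38.p6, at chr14:55578244-55578493 on the plus strand for Psme1 and chr14:55591102-55591351 on the minus strand for Psme2. Each is written 5′ to 3′, and the capitals mark a GC box (GGGCGG, searched on both strands).
Psme1: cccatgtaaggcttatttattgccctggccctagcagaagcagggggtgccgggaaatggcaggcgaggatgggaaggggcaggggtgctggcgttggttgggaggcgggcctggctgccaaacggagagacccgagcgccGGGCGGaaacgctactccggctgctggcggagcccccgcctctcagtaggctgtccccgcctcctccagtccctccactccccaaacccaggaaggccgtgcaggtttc
Psme2: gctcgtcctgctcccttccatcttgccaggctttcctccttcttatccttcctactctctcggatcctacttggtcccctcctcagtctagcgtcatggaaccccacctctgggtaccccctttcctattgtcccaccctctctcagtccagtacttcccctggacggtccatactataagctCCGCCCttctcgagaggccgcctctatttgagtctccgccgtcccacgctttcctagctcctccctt
The GC box lay 109 bases before the Psme1 start and, on the opposite strand, 67 bases before start site 1 of Psme2. Another lay 28 bases after that site. Start site 2 of Psme2, not shown, had GC boxes 147 and 53 bases before it. RefSeq promoters (250 bases before to 50 after the start) matched 40 members with 43 start sites, and 24 of these, or 55.8%, held a GC box, against 35.7% of all 32851 promoters. An interferon regulatory factor type motif, GAAA, any 2 bases and GAAA again, read on either strand, was found in the promoters of Psme1, Psmb3, Psmd4, Psmd9 and Psmg4, 5 in all or 11.6%, against 3.44% of all promoters. In Psme1 it began 10 bases after the start. The antioxidant response core TGACNNNGC was in 14.0% of the members' promoters and 12.4% of all, CCAAT in 32.6% and 37.4%, and the NF-κB type motif (GGGA and TTCC with any 2 bases between) in 2.33% and 1.47%. A match describes letters and not binding.

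As a group, proteasome transcripts held a similar share of the reads in every library. The 48 genes took 0.899% of the reads in the control for DMAT, 0.866% with DMAT, 0.910% in the control for CX4945 and 0.931% with CX4945. Their summed level with DMAT was 0.952 times that of its control (95% counting interval 0.934 to 0.969), and with CX4945 it was 1.04 times (1.02 to 1.06). Between the controls, CX4945 control over DMAT control, the ratio was 0.9996 (0.981 to 1.02). The sum thus stood slightly below its control with DMAT and slightly above it with CX4945.

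Gene by gene, 32 of 46 members were lower with DMAT and 14 higher, while 17 were lower with CX4945 and 29 higher. Over all genes tested, 4853 of 9633 were lower with DMAT and 4530 of 9342 were lower with CX4945. The median log2 ratio of CPM was -0.09 with DMAT and 0.05 with CX4945, beside 0.00 and 0.01 over all genes tested. The most frequent combination was lower with DMAT and higher with CX4945, in 22 members, against 10 lower with both, 7 higher with both and 7 higher with DMAT and lower with CX4945. Of 9248 genes tested in both pairs, 2286 were lower with DMAT and higher with CX4945. Another 2398 were lower with both, 2476 higher with both and 2088 higher with DMAT and lower with CX4945. With DMAT the counting interval lay below 1 in 7 members (Psmb7, Psmb10, Psmd8, Psmd10, Psmd12, Psme2 and Psme3), beside 10.1% of all genes tested, and above 1 in 0, beside 8.89%. With CX4945 it lay above 1 in 6 members (Psma7, Psmb6, Psmd2, Psmd12, Psme1 and Psme2), beside 7.56% of all genes tested, and below 1 in Psma1 and Psmd7, beside 7.08%. The controls differed about as often, with 3 members below (Psma2, Psma3 and Psmd8; 10.5% of all genes) and 6 above (Psmb8, Psmb10, Psmc5, Psmd1, Psmd3 and Psmd4; 8.07%). In either direction this is 15.2% of members with DMAT, 17.4% with CX4945 and 19.6% between controls, near the 19.0%, 14.6% and 18.6% of all genes. Deeper genes are called more often, and among those with at least 200 reads in the pair it was 5 of 42 members (11.9%) with DMAT, 8 of 41 (19.5%) with CX4945 and 8 of 42 (19.0%) between the controls, beside 23.2%, 19.3% and 23.8% of all such genes. The 2 inhibitors put 0 members on the same side of 1, beside 2.84% of all genes, and 2 on opposite sides (Psmd12 and Psme2), beside 1.51%.

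**Figure D1:**
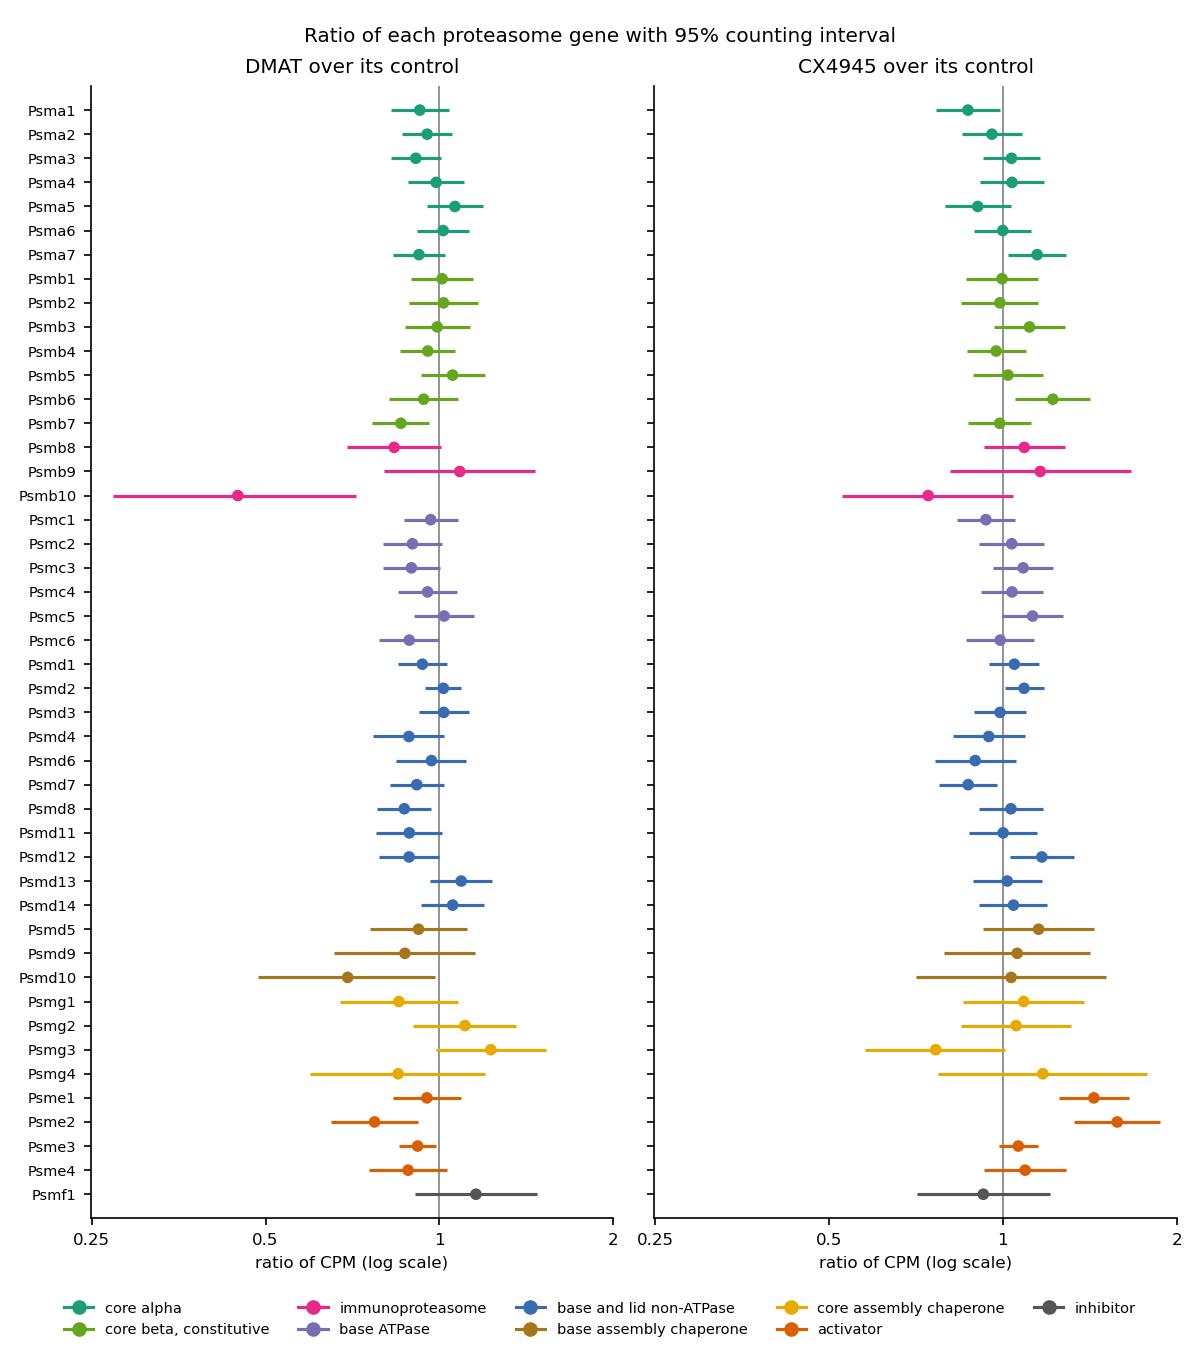
Ratio of CPM, on a log axis, for each of the 46 tested proteasome genes in the DMAT library (left) and the CX4945 library (right) over its own control; points are ratios, bars 95% counting intervals, and colours the subunit classes. Psmb10 at 0.448 stands apart on the left, and Psme1 at 1.44 and Psme2 at 1.58 on the right, while the core and regulatory subunits stay near 1.

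Most members moved little in any comparison. Their log2 ratios lay within 0.25 of 0 in 41 of 46 members with DMAT, 41 with CX4945 and 42 between the controls, or 89.1%, 89.1% and 91.3%, against 63.6%, 64.7% and 63.8% of all genes tested. Among genes with at least 200 reads in the pair it was 39 of 42 members (92.9%) against 77.3% of all such genes with DMAT, 37 of 41 (90.2%) against 79.3% with CX4945, and 40 of 42 (95.2%) against 77.4% between the controls. This floor does not match depth. The median member had 1051 reads in the DMAT pair and 868.5 in the CX4945 pair, and deeper genes have less counting scatter. Of the members tested, 31 had over 95% of their reads unique and 7 under 50%. Those 7 include the core genes Psma3 (19.8%), Psma5 (24.5%) and Psmb3 (37.2%), whose total reads may include reads of other places. At the 2-fold mark, 1 member was called with DMAT, Psmb10, lower, beside 1.33% of all genes lower by that much, 1.01% higher and 2.34% in either direction. With CX4945 it was 0, beside 1.77% of all genes, and between the controls 0, beside 2.28%.

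In a joint fit of both experiments, 0 of 46 members passed an adjusted p of 0.05 (quasi-likelihood test of edgeR, Benjamini-Hochberg adjusted over 9727 genes), beside 0.699% of all genes. At an unadjusted p under 0.05 there was 1 member, Psmb10, beside 7.4% of all genes, and DESeq2 called 0 members. The joint log2 fold change of Psmb10 was -0.73 with an SE of 0.254, which gave an unadjusted p of 0.00821 and an adjusted p of 0.331 by edgeR. The fit has 1 residual degree of freedom per gene, the disagreement between the inhibitors. Without the CX4945 library, and so without the block, Psmb10 passed with an adjusted p of 0.0143 by edgeR, which uses the DMAT library alone against both controls. Without the DMAT library its log2 fold change was -0.07 (adjusted p of 0.973 by edgeR), without the control for CX4945 -0.23 and without the control for DMAT -1.03, neither of which passed.

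The alpha ring of the core particle gates entry to the barrel, and its genes stood close to their controls with both inhibitors. Psma6, an alpha ring subunit, had 780, 730, 660 and 586 reads, and its level of 229, 233, 233 and 232 CPM per exon kilobase was the highest of all members. The libraries differed by less than counting error, with ratios of 1.02 (0.917 to 1.12) for DMAT and 1.00 (0.893 to 1.12) for CX4945. The 7 expressed alpha genes had log2 ratios between -0.13 and 0.09 with DMAT and between -0.20 and 0.20 with CX4945. Psma1, another ring subunit, was the lowest of them with CX4945, at 239 CPM in the control and 208 with the inhibitor, a ratio of 0.870 (0.765 to 0.989). It was also below its control with DMAT, at 219 against 237 CPM, where the interval included 1 (0.825 to 1.04). Summed over the class the ratio was 0.965 (0.927 to 1.00) with DMAT and 0.996 (0.952 to 1.04) with CX4945, while between the controls it was 0.945 (0.907 to 0.985). Against the control of the other experiment it was 1.02 (0.979 to 1.06) with DMAT and 0.941 (0.902 to 0.982) with CX4945, where the CX4945 interval leaves out 1.

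The 7 constitutive beta genes include the catalytic subunits Psmb5 (chymotrypsin-like activity), Psmb6 (caspase-like) and Psmb7 (trypsin-like). Psmb5 was the second most abundant member per exon kilobase and had 195, 205, 202 and 206 CPM per kilobase, with both counting intervals including 1. Psmb6 had 165, 155, 150 and 183 CPM, and stood above its control with CX4945 by 1.22 times (1.05 to 1.42). Psmb7 had 251, 216, 230 and 227 CPM and stood below its control with DMAT, at 0.858 times (0.766 to 0.961). The other 4 genes of the class (Psmb1 to Psmb4) had log2 ratios between -0.07 and 0.15 in both inhibitor comparisons. The class sum was 0.968 times its control (0.924 to 1.01) with DMAT and 1.03 times (0.981 to 1.09) with CX4945.

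The regulatory particle showed the same narrow range. The base ATPases, which unfold substrates, are Psmc1 to Psmc6, and Psmc1 had 262, 253, 277 and 258 CPM. The sum of the 6 genes was 0.936 times its control with DMAT (0.893 to 0.981) and 1.03 times with CX4945 (0.982 to 1.09), and no single ATPase had an interval leaving out 1. The 11 non-ATPase genes hold the scaffold subunits Psmd1 and Psmd2, the ubiquitin receptor Psmd4 and the deubiquitinase Psmd14. Psmd2 had 1568, 1469, 1320 and 1276 reads and ratios of 1.02 (0.946 to 1.09) with DMAT and 1.09 (1.01 to 1.18) with CX4945. Psmd7, a lid subunit that pairs with the deubiquitinase, had 272, 248, 290 and 253 CPM, and its ratio with CX4945 was 0.871 (0.775 to 0.978). Psmd12, another lid subunit, was one of 2 members whose intervals lay on opposite sides of 1, at 226, 200, 208 and 243 CPM. Its ratio was 0.886 (0.787 to 0.998) with DMAT and 1.17 (1.03 to 1.33) with CX4945.

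Across the 31 constitutive core, ATPase and non-ATPase genes together, log2 ratios lay between -0.22 and 0.13 with DMAT, between -0.20 and 0.29 with CX4945 and between -0.35 and 0.22 between the controls. Their counting intervals in both inhibitor comparisons lay within 0.762 and 1.42. The highest and lowest of the 4 libraries differed by at most 1.30 times for any of them (Psmd4). Levels within this set ranged from 29.7 to 232 CPM per exon kilobase, a 7.80-fold range, which exceeded the differences between libraries. The range and order depend on the deposited exon lengths, such as 6401 bases for Psmd11, the lowest, and 922 for Psmb5. Whether these match the transcripts in the cells was not tested.

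**Figure D2:**
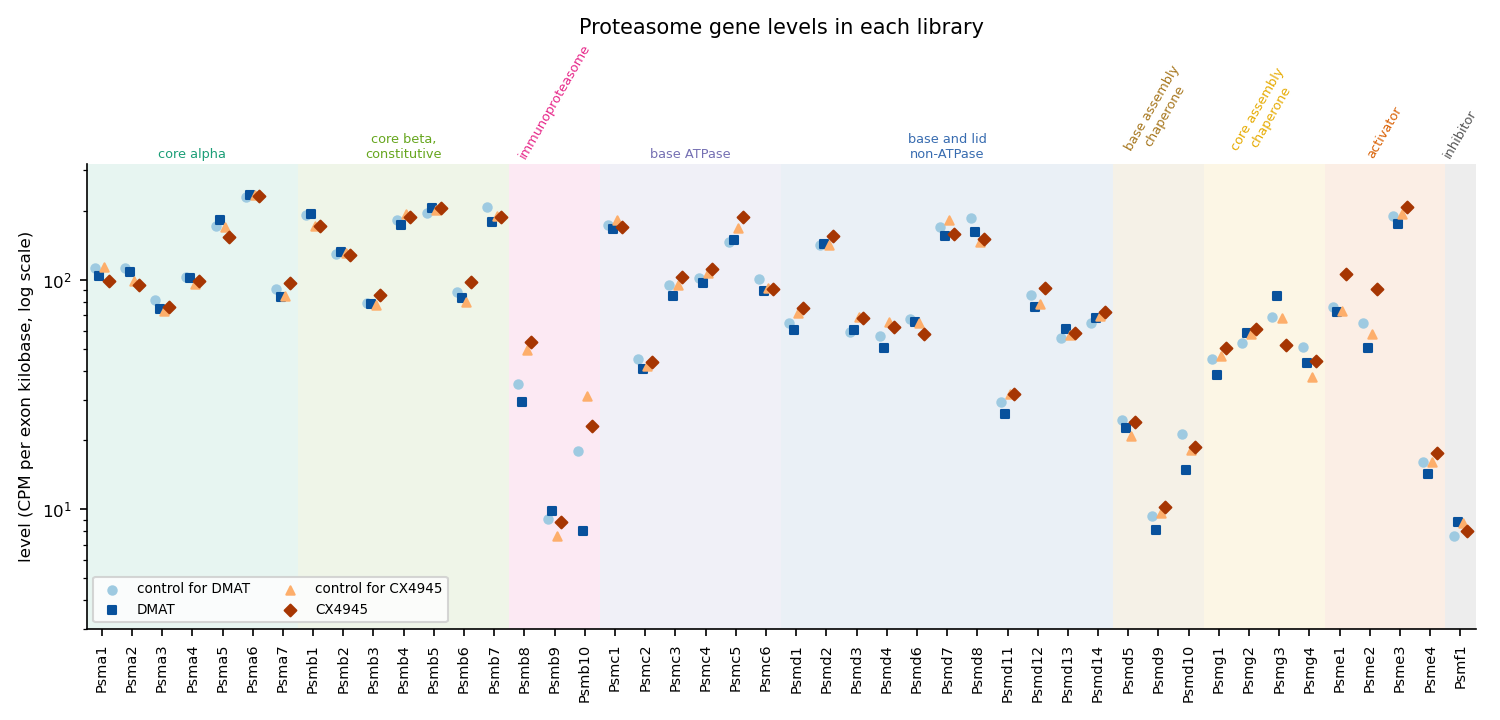
Level of each of the 46 expressed proteasome genes in CPM per exon kilobase on a log axis, with 1 marker per library, grouped by subunit class. The 4 markers of most core and regulatory genes overlap, whereas those of Psmb10, at 18.0, 8.06, 31.2 and 23.1, are spread apart.

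The assembly chaperones, which are not part of the finished particle, were expressed at lower levels and gave wider intervals. Psmd10, a base chaperone also called gankyrin, had 86, 55, 61 and 56 reads and was lower with DMAT at 0.694 times its control (0.485 to 0.985), while with CX4945 the ratio was 1.03 (0.706 to 1.51). Summed with the other base chaperones Psmd5 and Psmd9, the ratio with DMAT was 0.862 (0.747 to 0.996) and with CX4945 1.10 (0.941 to 1.29). Psmg3, a chaperone of core assembly, went the other way, with the highest ratio of all members with DMAT and the second lowest with CX4945. It had 57.7, 70.9, 57.0 and 43.6 CPM, with ratios of 1.23 (0.987 to 1.53) and 0.765 (0.578 to 1.01), both including 1. Psmg2, another core chaperone and the third highest ratio with DMAT, had 190, 194, 173 and 162 reads. The sum of the 4 core chaperones was 1.03 times its control (0.920 to 1.16) with DMAT and 0.998 times (0.876 to 1.14) with CX4945.

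Among the immunoproteasome subunits, Psmb10 was the member that differed most between libraries, with its highest level 3.87 times its lowest, beside a median of 1.17 over the 46 members. The 3 inducible subunits made up 1.47% to 2.23% of proteasome reads, and their counts were small for Psmb9 and Psmb10. Psmb10, which takes the place of Psmb7, had 63 reads in the control for DMAT and 26 with DMAT, then 91 in the control for CX4945 and 60 with CX4945. In CPM this is 22.9, 10.2, 39.6 and 29.4, so each inhibitor library was below its own control, but the CX4945 library was above the control for DMAT. The ratio with DMAT was 0.448 (0.272 to 0.717), a log2 ratio of -1.10, and that with CX4945 was 0.742 (0.527 to 1.04). The controls themselves differed at a log2 ratio of 0.77, with an interval of 1.24 to 2.43 on the ratio.

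Psmb8, which takes the place of Psmb5 and lies in the MHC region of chromosome 17, had 96.2, 80.3, 134 and 146 CPM. It was 0.835 times its control with DMAT (0.692 to 1.01) and 1.09 times with CX4945 (0.926 to 1.28), and both libraries of the CX4945 experiment were above both of the DMAT experiment. Psmb9, which takes the place of Psmb6, had 33.0, 35.8, 27.8 and 32.3 CPM, and its ratios of 1.08 and 1.16 both had intervals that included 1. At 8.81 CPM per exon kilobase it was among the lowest members, next to the inhibitor gene Psmf1 at 8.29. Psmb9 had no read counted as unique. The tables list it at 2 overlapping loci whose reads were summed, which may count a read more than once, so its level and its share against Psmb6 may be too high and its intervals too narrow. Psmb10 and Psmb8 had 37.9% and 49.0% of reads unique. Their loci overlap Gm16156 (Psmb10), Gm20496 (Psmb8) and Tap1 (Psmb9), so total reads of these members may include reads of the overlapping gene.

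Read types other than total exon reads gave the same side of 1 for Psmb10, but they are not separate checks. Its unique exon reads and its unique exon-exon reads had the same counts, 26, 7, 32 and 26. Junction and unique reads are thus nearly the same small part of its reads. Exon-exon junction reads were 27 in the control for DMAT and 7 with DMAT, a ratio of 0.281 (0.103 to 0.662), and unique exon reads were 26 and 7, a ratio of 0.292. In the CX4945 experiment junction reads were 32 in the control and 27 with the inhibitor, and unique reads were 32 and 26, with ratios of 0.950 (0.548 to 1.64) and 0.915 (0.524 to 1.58). Between the controls the unique reads gave an interval that included 1 (0.852 to 2.58).

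An inducible subunit replaces 1 constitutive subunit, so the reads of each were also set against its counterpart, a measure that does not depend on scaling between libraries. Psmb8 held 34.9%, 29.8%, 41.9% and 43.5% of the reads of Psmb8 and Psmb5. These shares are not scaled to exon length, which is 2736 bases for Psmb8 and 922 for Psmb5. Per exon kilobase the Psmb8 share was 15.3%, 12.5%, 19.6% and 20.6%. Psmb9 held 16.7%, 18.8%, 15.7% and 15.0% of its pair with Psmb6. Psmb10 held 8.33%, 4.53%, 14.7% and 11.5% of its pair with Psmb7, the lowest share in the DMAT library. The odds ratio with DMAT was 0.522 (0.313 to 0.850) for Psmb10 and 0.792 (0.631 to 0.995) for Psmb8, and for Psmb9 it was 1.15 (0.827 to 1.61). With CX4945 the odds ratios were 0.752 (0.521 to 1.08) for Psmb10, 1.07 (0.860 to 1.32) for Psmb8 and 0.951 (0.643 to 1.41) for Psmb9, and all 3 intervals included 1.

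Summed over the 3 pairs, the inducible subunits held 20.3%, 18.4%, 26.3% and 25.8% of reads. Per exon kilobase this was 11.3%, 9.20%, 15.7% and 14.8%. The odds ratio was 0.885 (0.750 to 1.04) with DMAT and 0.973 (0.832 to 1.14) with CX4945. Between the controls it was 1.40 (1.20 to 1.63), farther from 1 than either inhibitor comparison. Set against the control of the other experiment, the odds ratio was 0.633 with DMAT and 1.36 with CX4945, which turns the direction for CX4945. The summed level of the 3 inducible genes gave 0.831 (0.716 to 0.964) with DMAT, 1.03 (0.902 to 1.18) with CX4945 and 1.33 (1.16 to 1.52) between the controls.

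**Figure D3:**
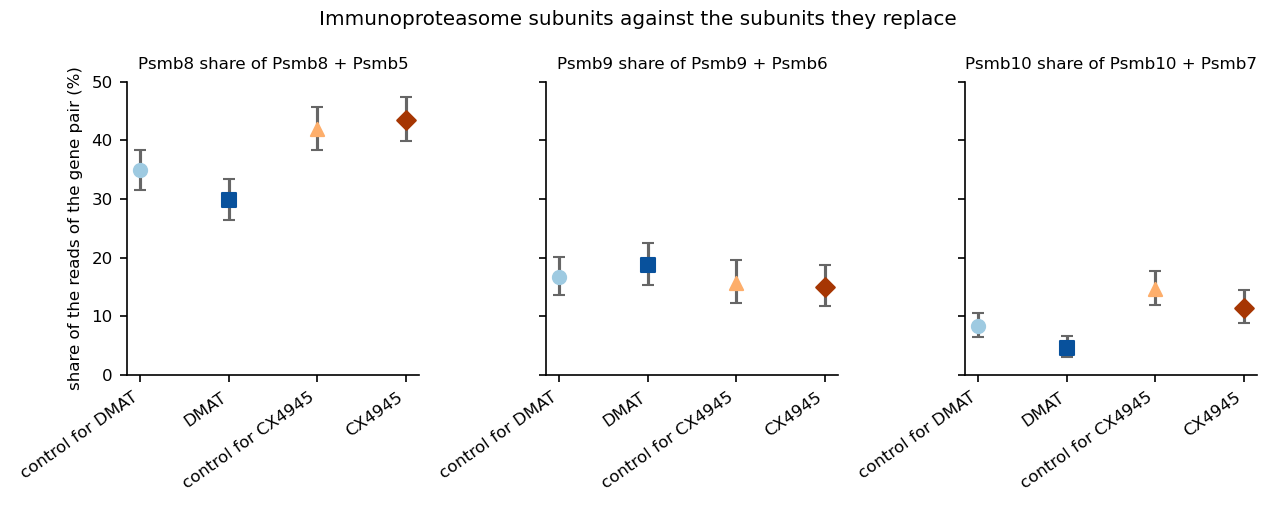
Share of reads that fall on the inducible subunit of each catalytic pair (Psmb8 with Psmb5, Psmb9 with Psmb6, Psmb10 with Psmb7) in percent, for the 4 libraries; bars are 95% binomial (Clopper-Pearson) intervals. Shares are of reads and are not scaled to exon length. The 2 libraries of the CX4945 experiment lie above those of the DMAT experiment for Psmb8 and Psmb10, and DMAT has the lowest Psmb10 share at 4.53%.

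Among the activators, Psme1 and Psme2, the subunits of the PA28αβ cap, had the highest ratios of all members with CX4945. Psme1 had 168, 160, 162 and 233 CPM, and the CX4945 library stood above the other 3, which lay close together. Its ratio was 1.44 (1.25 to 1.65) with CX4945 and 0.952 (0.831 to 1.09) with DMAT. Psme2 had 115, 88.6, 102 and 161 CPM, the highest value again with CX4945 and the lowest with DMAT. Its ratio was 1.58 (1.33 to 1.87) with CX4945 and 0.772 (0.648 to 0.919) with DMAT. In the joint fit the log2 fold changes were 0.22 for Psme1 (adjusted p of 0.719 by edgeR) and 0.15 for Psme2 (adjusted p of 0.925 by edgeR). Both turned negative without the CX4945 library. That library held the highest level of both genes, so the turn follows from the levels above and is no separate check.

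Psme2 shares sequence with a pseudogene, Psme2b-ps, and only 31.9% of its exon reads were unique, whereas for Psme1 it was 100%. Unique reads of Psme2 were 96, 72, 71 and 113, and gave a ratio of 1.79 (1.32 to 2.45) with CX4945. With DMAT they gave 0.814 (0.591 to 1.12), an interval that includes 1, while junction reads gave 0.709 (0.564 to 0.889). Junction reads of Psme1 gave 1.40 (1.17 to 1.69) with CX4945.

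The other activators stayed nearer to 1. Psme3, the nuclear activator PA28γ, was the most abundant of the 4 genes at 559, 513, 572 and 608 CPM, with ratios of 0.917 (0.851 to 0.988) for DMAT and 1.06 (0.983 to 1.15) for CX4945. Psme4, the large single-chain activator PA200, had 135, 119, 134 and 147 CPM, and both of its intervals included 1. Summed, the activators were 0.901 times their control with DMAT (0.852 to 0.954) and 1.18 times with CX4945 (1.12 to 1.26), and the controls differed by 0.993 (0.939 to 1.05). They made up 10.2% to 12.3% of proteasome reads. Psmf1, an inhibitor that binds the core particle (PI31), had 135, 144, 129 and 106 reads and ratios of 1.16 (0.909 to 1.47) and 0.925 (0.709 to 1.21).

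**Figure D4:**
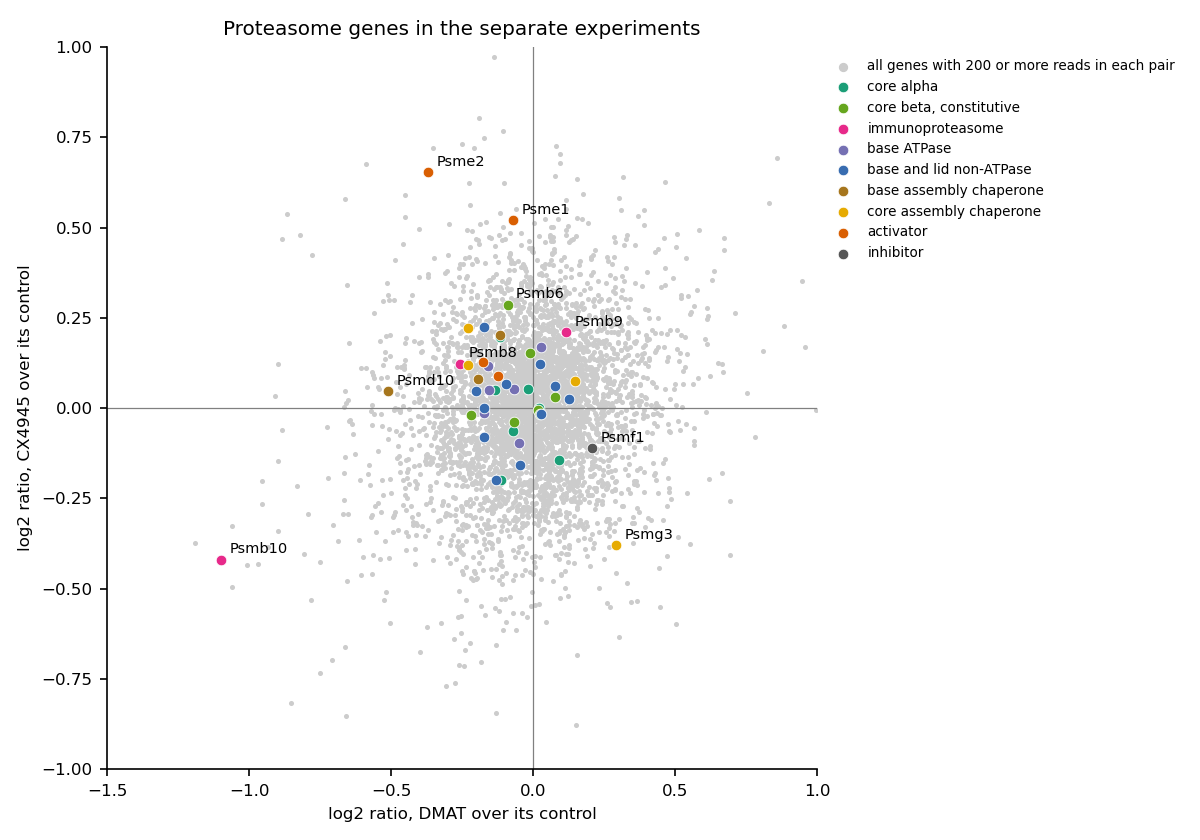
Log2 ratio of CPM with DMAT (x axis) against that with CX4945 (y axis), each over its own control, for the 46 proteasome genes by class and, in grey, for genes with at least 200 reads in both pairs; 11 of these 4741 genes lie outside the axes. Most proteasome genes sit close to the origin, with Psmb10 far left at -1.10 and Psme1 and Psme2 highest at 0.52 and 0.65.

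Genes that act with the proteasome were counted from 5 lists. In none did a gene pass the joint fit (edgeR, beside 0.699% of all genes). Named genes of these lists were chosen after their values were seen, except Hmox1. Over all genes tested, the interval lay below 1 in 10.1% and above in 8.89% with DMAT, below in 7.08% and above in 7.56% with CX4945, and below in 10.5% and above in 8.07% between the controls. These shares do not match the lists in depth. Among genes with at least 200 reads in the pair, 23.2% with DMAT, 19.3% with CX4945 and 23.8% between the controls were called in either direction. Of 19 proteasome-associated genes, 4 had an interval below 1 with DMAT and 0 above, 1 was above and 0 below with CX4945, and 1 was above and 1 below between the controls. The 4 were the ubiquitin receptor Adrm1 (ratio 0.866), the core maturation factor Pomp (0.846), Nfe2l1, a transcription factor that induces proteasome genes (0.701, 0.600 to 0.818), and Zfand5 (0.697, 0.558 to 0.870). With CX4945 the ratio of Nfe2l1 was 0.960 (0.808 to 1.14). The genes called between the controls were also among these 4. Adrm1 was above, at 1.19 (1.05 to 1.35), and Nfe2l1 below, at 0.848 (0.729 to 0.986). Most reads of Adrm1 were not unique, so its values may include reads of other places. Of 9 genes for ubiquitin and its extraction, 1 was above and 3 below with DMAT, 3 were above and 0 below with CX4945, and 2 were above and 2 below between the controls. Vcp, the segregase that delivers substrates, was among them with 0.783 and 1.10, although only 17.1% of its reads were unique.

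Of the 12 genes of MHC class I antigen processing, whose products carry proteasome peptides to the cell surface, 0 were above and 3 below with DMAT, beside 10.1% of all genes below. With CX4945 5 were above and 0 below, beside 7.56% above, and between the controls 3 were above and 3 below. In the CX4945 pair 11 of the 12 had at least 200 reads, and 19.3% of all genes that deep were called in either direction, beside 14.6% of all tested. The median log2 ratio of the 12 genes was -0.05 with DMAT and 0.20 with CX4945, beside 0.00 and 0.01 over all genes. The class I heavy chain H2-K1 had 627, 539, 539 and 711 CPM, with ratios of 0.860 (0.801 to 0.924) and 1.32 (1.22 to 1.42). The heavy chain H2-D1 had 475, 426, 424 and 589 CPM, with ratios of 0.897 (0.826 to 0.973) and 1.39 (1.28 to 1.51). As with Psme2, the CX4945 library was the highest for both, and intervals lay on opposite sides of 1 with the inhibitors. The controls also differed, at ratios of 0.860 (0.799 to 0.926) for H2-K1 and 0.893 (0.821 to 0.971) for H2-D1. These are close to the ratios of the 2 genes with DMAT. These are members of a polymorphic family, and 91.3% and 87.3% of their reads were unique. Tapbp (tapasin) and Nlrc5, the class I transactivator, differed between the controls at log2 ratios of 1.15 and 1.08, beside 0.10 and 0.33 with DMAT and 0.36 and 0.30 with CX4945.

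Interferon response genes and NRF2 targets, which include stress regulated genes, had fewer members with enough reads. Of 6 interferon genes tested among 10, 2 were below with DMAT (Gbp2 and Gbp4) and 0 above. Gbp4, a guanylate-binding protein, differed between the controls at a log2 ratio of 1.35, whereas Gbp2, of the same family, differed in the opposite direction at -0.83. Of 4 NRF2 targets tested among 7, 1 was below with DMAT (Txnrd1) and 2 below with CX4945 (Hmox1 and Gclm), with 0 above in either, beside 10.1% and 7.08% of all genes below. Between the controls 2 of the 4 were above and 0 below, Gclm at a ratio of 1.67 and Txnrd1 at 1.29, and Gclm with CX4945 (99.4 CPM) stood above the control for DMAT (75.1 CPM). Only 8.08% of the Gclm reads were unique, so its values may include reads of other places. Hmox1, the heme oxygenase gene, was past 2-fold lower with CX4945, on 27, 17, 23 and 9 reads.

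**Figure D5:**
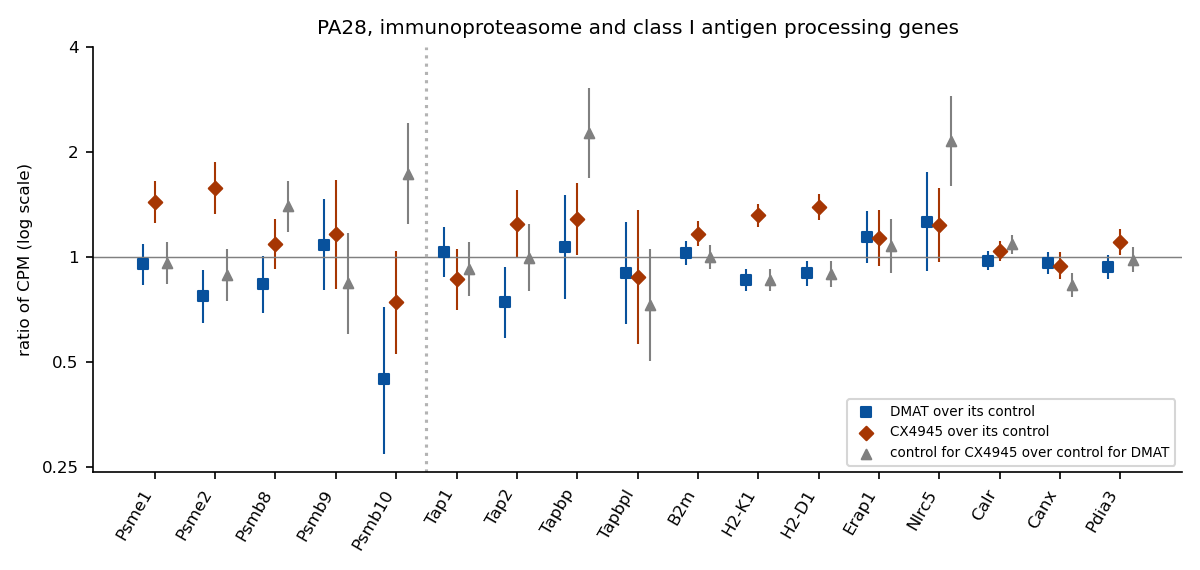
Ratio of CPM on a log axis with DMAT, with CX4945 and between the controls (control for CX4945 over control for DMAT). Genes are Psme1, Psme2, the immunoproteasome genes and the class I antigen processing genes, and the activators Psme3 and Psme4 are not shown. Bars are 95% counting intervals. Psme1, Psme2, H2-K1 and H2-D1 lie above 1 with CX4945, and Psmb8, Psmb10, Tapbp and Nlrc5 lie above 1 between the controls.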

How the data were processed

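RNA sequencing libraries were made from total RNA with the TruSeq RNA kit and read on a MiSeq, per the labels' protocols and the series description. Per the submitters' processing notes, the software was CASAVA 1.8.2 and the genome build mm9. The aligner, annotation, counting rule and strand are not given in the sources used here. The deposited tables hold whole-number counts of exon reads per feature, made by the authors with no normalization; total exon reads also count reads that fit several places. The exon length used for levels per kilobase is another deposited column made by the authors. Levels and shares per exon kilobase therefore depend on that annotation.

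Features listed at several overlapping loci under 1 symbol were summed (169 genes, Psmb9 and Psmd14 among them), which may count a read more than once,, giving 37412 genes from 37583 features. Counts were scaled with TMM factors (0.993 to 1.01; edgeR 4.0.16, R 4.3.3), and log2 ratios of CPM took a prior count of 2. Genes with 20 reads over a pair were tested in it, and one was counted at 2-fold or where the exact conditional (Clopper-Pearson) 95% interval of the ratio left out 1. Without molecular identifiers, reads do not stand for independent molecules, and intervals cover counting error only. The joint fit used edgeR's quasi-likelihood test over all 4 libraries with the experiment as a block and Benjamini-Hochberg adjustment; its script was tested on simulated data. The SE is the absolute log2 fold change divided by the square root of F. Titles give the pairing. As a check, the experiments' difference in controls was correlated with their difference under inhibitor (Pearson's r = 0.424 across 6968 genes of 200 reads or more; genes are not independent replicates). No label states separate cultures or animals; p-values therefore reflect only how these libraries scatter, which may be technical. Odds ratios are conditional exact (scipy 1.17.1). DESeq2 1.42.0, other scalings, read types, filters and controls were alternatives. Named members are the immunoproteasome subunits and their counterparts, the activators, members past a call, the 3 highest and 3 lowest ratios of each pair, the 2 highest and lowest levels, members under 20 reads and the first described of a class. A few further members and list genes were named after their values were seen. Members, lists and tests were chosen with earlier results of these data known. One result from the gene lists is not reported here.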

Additional observations from a re-analysis of the deposited data

Results flagged for a closer look

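Both inhibitors were set against their own controls, and in 2 proteasome genes the counting intervals lay on opposite sides of 1. Psmd12 had a log2 ratio of -0.17 with DMAT and 0.22 with CX4945, and Psme2 had -0.37 and 0.65. Intervals on opposite sides occurred in 1.51% of all genes tested, and on the same side in 2.84%. With 1 library per group and unequal doses the difference between the inhibitors was not tested. The Psmd12 interval with DMAT reached 0.998 and included 1 under total-count scaling (0.797 to 1.01), with DESeq2 size factors (0.789 to 1.001) and against the control of the other inhibitor (0.849 to 1.09). With CX4945 the Psmd12 interval also included 1 against the control of the other inhibitor (0.953 to 1.21). That of Psme2 with DMAT included 1 with unique reads and against the control of the other inhibitor (0.722 to 1.05).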

How the results depend on the processing

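Of the recomputed values that answer a comparison, 88 stayed near the main value (counts within 1.5 times of it, summed ratios and odds ratios within its interval), 6 moved, 2 came to more calls and 1 to fewer. With 100 reads asked of a pair, the DMAT count at 2-fold fell to 0, because Psmb10, with 63 and 26 reads, was no longer tested. With the control of the other inhibitor, the members below 1 with CX4945 came to 4, the summed immunoproteasome ratio was 0.626 with DMAT and 1.37 with CX4945, and the odds ratio over the 3 catalytic pairs was 0.633 and 1.36; Psmd8 with DMAT turned to a log2 ratio of 0.15. Against the control of the other inhibitor, the DMAT intervals of Psmb7, Psmd8, Psmd10, Psmd12 and Psme2 included 1. So did the CX4945 intervals of Psma7, Psmb6, Psmd7 and Psmd12. The count below 1 with DMAT came to 8 there, but not of the same members. With unique reads, which leave out Psmb9, the summed ratio with DMAT was 0.661 and the odds ratio 0.703. Without the replicate block, edgeR called 0 members and 1 gene in all, against 68 genes with it; DESeq2 with the block called 3, and DESeq2 size factors, total-count scaling, unique reads and no filter gave 102, 108, 108 and 125, with 0 members in each. Leaving out each library, without the block, gave 0 to 1 members, with log2 fold changes of Psmb10 from -1.59 to -0.07. The 1 was Psmb10 without the CX4945 library (log2 fold change -1.59, adjusted p of 0.0143 by edgeR, which assumes that the lone DMAT library varies like the controls), and there Psme1 and Psme2 turned to -0.043 and -0.29. Of the values of single genes and classes, 278 stayed near the main value (by the same measures, or for single genes with the same direction and call), 9 moved, 17 lost a call, 1 gained one and 3 reversed. Depths of 2056635 to 2772525 reads leave wide intervals for Psmb9, Psmb10 and Psmd10.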
